A study of Mus musculus with 8 samples.

Results

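Imprinted genes are expressed from the maternal or the paternal copy according to methylation that the germline laid down on the DNA. The 47 genes described here are listed by name as imprinted, with no peak value in the rule, and all 47 were found once in the GENCODE M21 annotation of mm10. They were grouped into 18 imprinted domains, each a stretch of the genome whose imprinted genes share a control region. A gene's window was its body extended by 10 kb on each side. The windows together covered 3.48 Mb, or 0.131% of the assembled genome, and a peak was counted where it overlapped a window by at least 1 bp.

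The peaks are those of EHMT2, a histone methyltransferase that works as a complex with EHMT1 and deposits H3K9me2, a mark of repressed chromatin, mapped in mouse embryonic stem cells (mESCs) by chromatin immunoprecipitation sequencing (ChIP-seq). All 8 samples of the series came from the EHMT2-dTAG-mcherry cell line, of BL6/129 hybrid background, in which the endogenous protein of controls and treated cells alike carries a degron, a hemagglutinin (HA) tag and a linked mCherry reporter. DMSO (the vehicle) or dTAG (the degrader) was given for 24 h, and tagged EHMT2 was pulled down with an HA antibody, either C29F4 or ab9110. The 4 peak lists came from C29F4 ChIP in DMSO, ab9110 ChIP in DMSO, ab9110 ChIP in dTAG and ab9110 input (sonicated chromatin with no pulldown) in dTAG. The C29F4 list was called on 2 merged samples, which the methods describe as independent clones, and each ab9110 list on 1 library, whose clone is not given. No difference between lists has a replicate check, and no test between conditions was made. The dTAG cells carry the same tag but were depleted of it, so the dTAG list holds what was called with the HA antibody after the target was removed.

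Imprinting is set in the germline, where one parent's control region is methylated and the other's is not, and it is kept in the embryo by proteins that recognise the methylated copy. ZFP57 is a zinc finger protein that binds a short methylated motif in germline control regions and brings TRIM28, SETDB1 and DNA methyltransferases to them. EHMT2 is known from mouse work to have roles at imprinted genes, in the placenta above all and through the noncoding RNAs Kcnq1ot1 and Airn, which silence neighbouring genes on the paternal copy. The lists do not separate the parental copies, so no value below belongs to a maternal or a paternal allele.

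The sequences below show what lay under the peaks. The first 3 are the stretches at the summits of the C29F4 peaks of highest fold enrichment in the imprinted domains, all of which lay between genes and outside the windows. The last 3 are the stretches at ab9110 DMSO peaks near a start of a gene marked as having a germline methylated start, in order of fold and limited to bases outside annotated exons. A peak was left out where its summit lay over 1 kb from the start (Peg3) or under 40 bases remained outside exons (Sgce and Peg13). All are from GRCm38 (mm10), plus strand, 5′ to 3′. Capitals mark the ZFP57 motif TGCCGC and the YY1 motif AAGATGGC, on either strand.
Kcnk9 upstream, chr15:72568643-72568843: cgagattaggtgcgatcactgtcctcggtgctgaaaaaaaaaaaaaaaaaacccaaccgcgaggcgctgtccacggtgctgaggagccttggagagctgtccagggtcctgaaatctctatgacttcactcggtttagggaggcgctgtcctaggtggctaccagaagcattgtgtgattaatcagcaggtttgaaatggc
Ndn upstream, chr7:62335226-62335426: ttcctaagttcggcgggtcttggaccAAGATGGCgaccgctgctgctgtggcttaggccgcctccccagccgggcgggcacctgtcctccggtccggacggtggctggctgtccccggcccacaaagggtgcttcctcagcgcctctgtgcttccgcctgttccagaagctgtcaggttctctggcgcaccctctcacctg
Snrpn to Ndn interval, chr7:60974171-60974371: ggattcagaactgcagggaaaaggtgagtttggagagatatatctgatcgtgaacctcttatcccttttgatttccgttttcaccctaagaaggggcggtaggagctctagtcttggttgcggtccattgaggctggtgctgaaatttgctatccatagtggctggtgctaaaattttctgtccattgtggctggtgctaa
Usp29 internal start, chr7:6948040-6948240: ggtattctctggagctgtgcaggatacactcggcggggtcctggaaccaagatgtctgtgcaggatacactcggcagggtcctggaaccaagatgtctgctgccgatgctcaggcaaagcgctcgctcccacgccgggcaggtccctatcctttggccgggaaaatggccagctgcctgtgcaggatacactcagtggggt
Mest promoter, chr6:30738336-30738412: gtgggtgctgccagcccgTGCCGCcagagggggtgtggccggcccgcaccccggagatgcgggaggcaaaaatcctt
Plagl1 internal start, chr10:13091027-13091227: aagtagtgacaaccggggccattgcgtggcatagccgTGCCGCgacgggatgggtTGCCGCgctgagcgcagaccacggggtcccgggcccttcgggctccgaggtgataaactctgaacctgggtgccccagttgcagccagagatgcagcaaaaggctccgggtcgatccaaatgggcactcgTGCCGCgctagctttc

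The Plagl1 stretch held 18 CpG dinucleotides and 3 copies of the ZFP57 motif, and none of it was soft-masked (the mark of repeats and low-complexity sequence in the assembly). The Mest stretch held 1 copy in 77 bases. The Usp29 stretch held no copy and was 94% soft-masked, and it lay at a start inside the gene, far from the promoter that Usp29 shares with Peg3. Of the 3 C29F4 stretches none held the ZFP57 motif. The one upstream of Ndn was soft-masked throughout and carried the YY1 motif once.

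In these windows the density of peaks could not be told apart from that of the genome at the counts available, and every ratio was above 1. The C29F4 list had 19 peaks in the windows where its own genome-wide density gives 14.5, a ratio of 1.31 (exact Poisson 95% interval 0.791 to 2.05). The ab9110 DMSO list had 64 against 53.6, a ratio of 1.19 (0.919 to 1.52). After dTAG there were 31 against 21.4, a ratio of 1.45 (0.982 to 2.05). The dTAG input had 3 against 2.69, a ratio of 1.12 (0.23 to 3.26). Each interval held 1, and all intervals here cover counting error only. Counted over whole domain spans, from the first to the last member, the ratios were 1.18, 0.878, 0.989 and 1.16. Over gene bodies without extension they were 1.47, 1.21, 1.52 and 0.93. With 50 kb on each side they were 1.36, 1.12, 1.57 and 1.18. These alternatives are given without intervals.

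The lists held 11010, 40813, 16323 and 2046 peaks on chromosomes 1 to 19, X and Y, in the order C29F4, ab9110 DMSO, ab9110 dTAG and dTAG input. The lists hold no read totals. The lowest background of each list, which is its mean fragment coverage, was 3.64, 2.11, 1.23 and 0.978 fragments, so the dTAG ChIP library had 58.2% of the coverage of its DMSO counterpart, and a weak peak was harder to call in it. Fold enrichment is the authors' ratio of fragments at a summit to the local background, with 1 added to each. It therefore depends on coverage and background, which differ between the lists. Folds of different lists at the same place are given side by side and do not measure a change in binding. In the windows the median fold was 3.52 for C29F4, 3.16 for ab9110 DMSO and 3.9 for ab9110 dTAG, beside 3.67, 3.28 and 3.78 over the whole lists.

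Of the 47 genes, 11 had a C29F4 peak in the window, which is beside 14.6% of all 32093 protein-coding and long noncoding genes. An ab9110 DMSO peak was found at 36 of them, where 53% of all genes had one, and an ab9110 dTAG peak at 27, where 42.7% had one. Input peaks fell at 3 genes, Mkrn3, Slc22a2 and Inpp5f, beside 4.63% of all genes. The imprinted windows were longer than the windows of genes in general (median 46.5 kb against 32.8 kb), and a longer window holds more peaks. Genes of 1 domain also share peaks, so the 47 are not independent. By domain, 9 of 18 had a C29F4 peak, 17 an ab9110 DMSO peak and 14 an ab9110 dTAG peak, and 7 had a peak of every ChIP list.

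**Figure D1:**
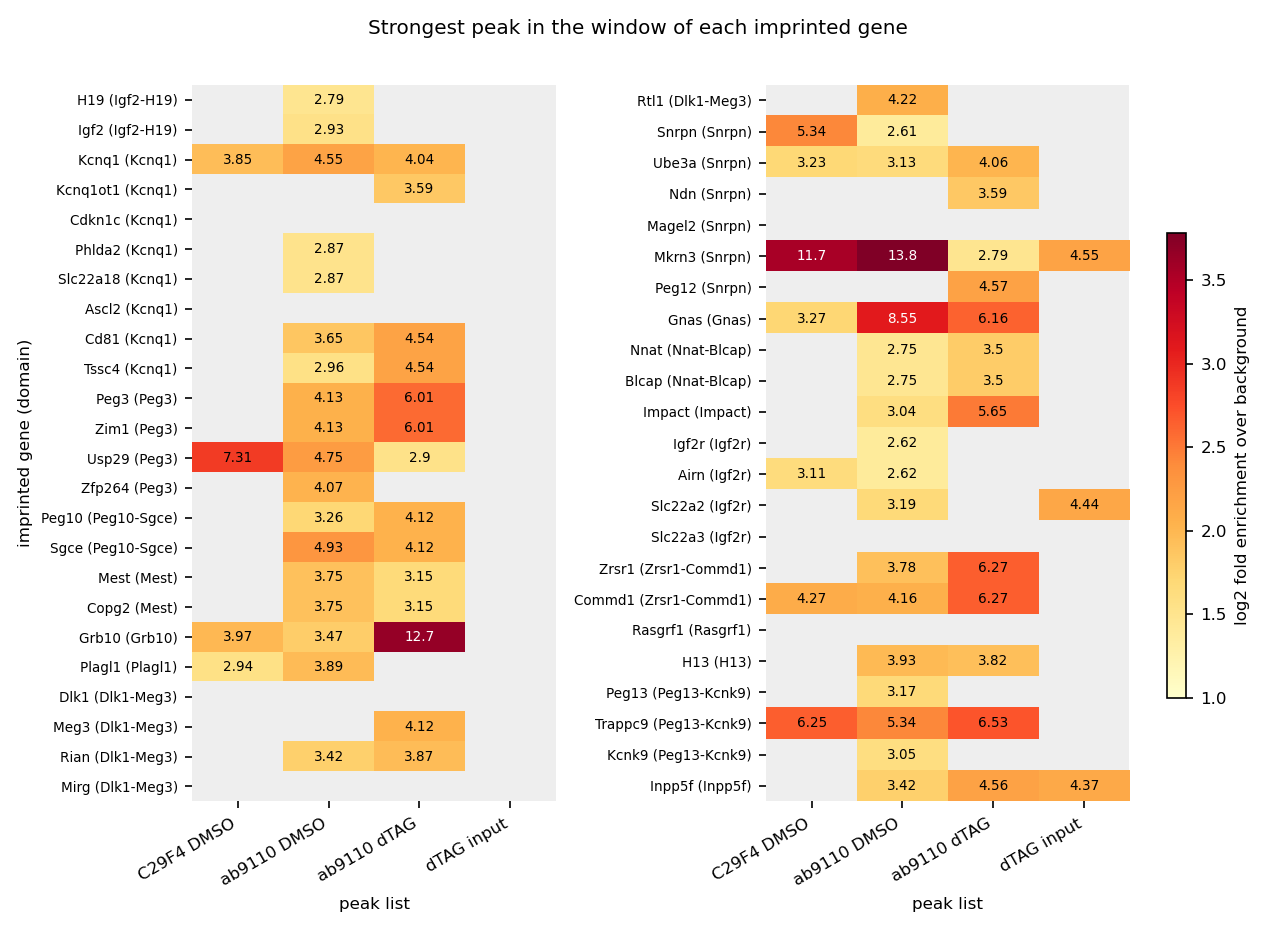
Strongest peak in the window of each of the 47 imprinted genes (rows, with the domain in brackets) in each of the 4 peak lists (columns). Colour gives log2 fold enrichment, the printed number is the fold itself and grey means no peak. Mkrn3 has the highest C29F4 and ab9110 DMSO folds (11.7 and 13.8) and Grb10 the highest dTAG fold (12.7).

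A peak of all 3 ChIP lists was found in the windows of 8 genes, namely Kcnq1, Usp29, Grb10, Ube3a, Mkrn3, Gnas, Commd1 and Trappc9. At Grb10, Ube3a and Mkrn3 the peaks of all 3 lists overlapped at 1 place, while at the other genes no single place had a peak of all 3. Another 18 had peaks of 2 lists. Peaks of the ab9110 DMSO list alone were found at 10 genes (H19, Igf2, Phlda2, Slc22a18, Zfp264, Rtl1, Igf2r, Slc22a2, Peg13 and Kcnk9) and peaks of the dTAG list alone at 4 (Kcnq1ot1, Meg3, Ndn and Peg12). Some of these calls were weak. The dTAG peaks at Kcnq1ot1 and Ndn had 7 fragments each, and the DMSO peaks at H19, Igf2, Slc22a2 and Kcnk9 had 12, 11, 9 and 11. The remaining 7 genes had no ChIP peak, and these were Cdkn1c (a brake on cell division), Ascl2 (a transcription factor of the placenta), Dlk1 (a regulator of growth), the noncoding RNA Mirg, Magel2, the transporter Slc22a3 and Rasgrf1, an activator of Ras signalling. For Rasgrf1, whose window stands alone in its domain, the ab9110 DMSO density gives 2.11 peaks, and a count of 0 allows up to 3.69.

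By the role of the gene, C29F4 peaks were found at 3 of 4 genes of the ubiquitin pathway (Usp29, Ube3a and Mkrn3, but not Magel2), 1 of 5 growth regulators (Grb10), 1 of 5 transcription factors (Plagl1), 1 of 5 channels and transporters (Kcnq1), 1 of 7 noncoding RNAs (Airn) and 1 of 2 signalling genes (Gnas). The other 3 were Snrpn, Commd1 and Trappc9. By the expressed copy, they were found at 4 of 20 maternally expressed genes, 5 of 22 paternally expressed genes and 2 of 5 whose isoforms differ. For ab9110 DMSO these counts were 15, 16 and 5, and for ab9110 dTAG 10, 12 and 5. Beside these counts, 14.6% of all genes had a C29F4 peak in the window, 53% an ab9110 DMSO peak and 42.7% a dTAG peak. The median window was 63.7 kb for the ubiquitin genes and 30.5 kb for the growth regulators. It was 57.5 kb for maternally and 34.9 kb for paternally expressed genes. The groups are small, and differences between them were not tested.

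**Figure D2:**
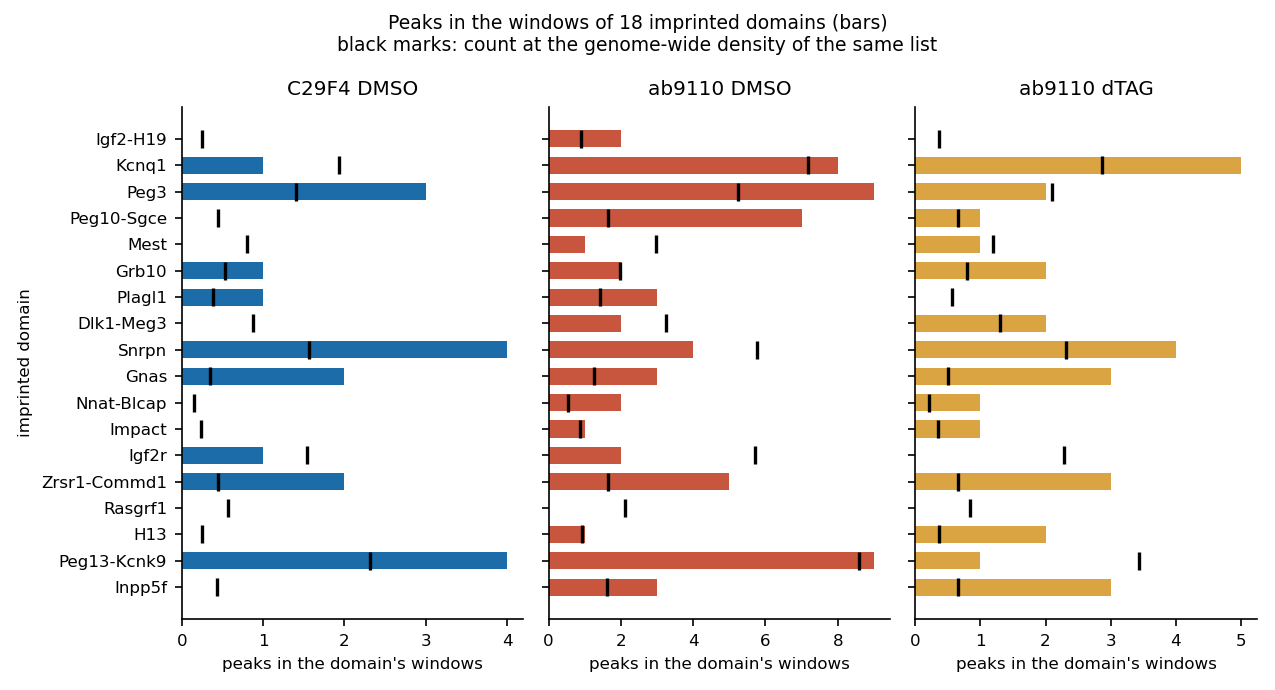
Peaks in the windows of each of the 18 imprinted domains (bars) for C29F4 DMSO, ab9110 DMSO and ab9110 dTAG, with black marks at the count that the list's genome-wide density gives for windows of that length. Peg10-Sgce stands at 7 ab9110 DMSO peaks against 1.64 (exact interval of the count 2.81 to 14.4), and Rasgrf1 has no bar in any panel. Both were picked from the 18 domains, and the interval makes no allowance for that choice.

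The strongest peak of any imprinted domain lay in the Peg13-Kcnk9 domain of chromosome 15. Kcnk9 is a potassium channel, Trappc9 a part of a vesicle-tethering complex and Peg13 a noncoding RNA transcribed from within Trappc9. The C29F4 peak at chr15:72568200-72569641 had a fold of 27, with 143 fragments over a background of 4.34, and ranked 4 of 11010. At the same place the ab9110 DMSO fold was 20.3, ranking 8 of 40813. Neither the dTAG list nor the input list had a peak there. It was intergenic, with its summit 22403 bp upstream of the Kcnk9 start and between the windows of Kcnk9 and Trappc9, so it is in none of the window counts. The whole peak was 40.7% soft-masked.

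Within Trappc9, a gene of 471585 bp, there were 4 C29F4 peaks where the density gives 2.04 for the window, and all were intronic. Of these, 3 lay towards the end of the gene nearer Kcnk9, with C29F4 folds of 6.25, 5.45 and 5.78 and ab9110 DMSO folds of 4.65, 2.61 and 2.52. No dTAG peak overlapped any of them. The remaining C29F4 peak had a fold of 2.55 and no ab9110 partner. Trappc9 had 8 ab9110 DMSO peaks in its window against 7.58 at the list's density. Its only dTAG peak, of fold 6.53, lay 6840 bp upstream of the gene at a place with an ab9110 DMSO peak of fold 5.34. At the start of Peg13 the ab9110 DMSO list had a peak of fold 2.99, with the ZFP57 motif, and the other lists had none. Kcnk9 had a single ab9110 DMSO peak, of fold 3.05.

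**Figure D3:**
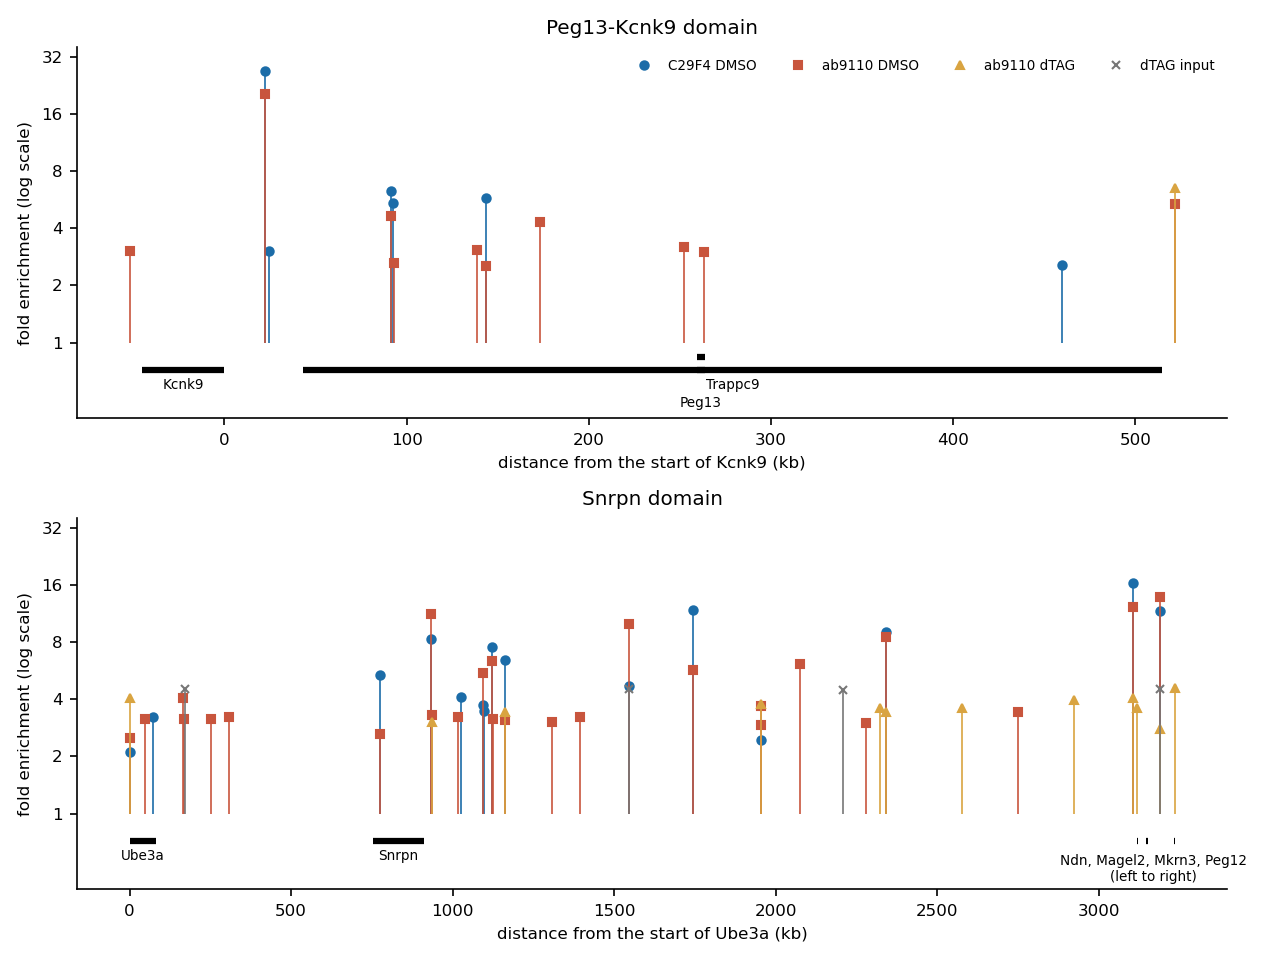
Peaks of the 4 lists in the Peg13-Kcnk9 domain (top, distance in kb from the start of Kcnk9) and the Snrpn domain (bottom, distance from the start of Ube3a), each stem giving the fold enrichment of 1 peak on a log scale, with gene bodies as black bars below. The peak of fold 27 upstream of Kcnk9 and the C29F4 peaks between Snrpn and Ndn lie outside the gene bodies.

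The Snrpn domain on chromosome 7, deleted in Prader-Willi and Angelman syndromes in humans, held the second group of strong peaks. Mkrn3, a ubiquitin ligase gene of 1 exon, had a peak of every list at its start. The C29F4 peak at chr7:62419807-62421139 had a fold of 11.7 (198 fragments over 16) and the ab9110 DMSO peak a fold of 13.8 (94 over 5.87), its rank being 64 of 40813. The dTAG fold at Mkrn3 was 2.79 (16 over 5.1). The input also had a peak at this place, with a fold of 4.55 and 8 fragments, and its part in the ChIP values was not tested. Mkrn3 was the only place in the windows where an input peak overlapped a ChIP peak.

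Ube3a, the ubiquitin ligase expressed from the maternal copy in neurons, had a weak peak of every ChIP list at its start. The folds there were 2.12 for C29F4, 2.49 for ab9110 DMSO and 4.06 for ab9110 dTAG. A second C29F4 peak, of fold 3.23, lay at an internal start of Ube3a in sequence that was soft-masked throughout. Snrpn, a splicing factor gene whose promoter lies in the control region of the domain, had a C29F4 peak at chr7:60003166-60003765 with a fold of 5.34, in an intron, its summit 1725 bp from the nearest Snrpn start. The ab9110 DMSO fold there was 2.61 and no dTAG peak overlapped it. Ndn, a growth suppressor of neurons, had only a dTAG peak (fold 3.59), and Peg12 likewise (fold 4.57, 475 bp from its start). Magel2 had none.

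Between Snrpn and the cluster of Ndn, Magel2, Mkrn3 and Peg12 lies a long interval with no listed gene. All but 4 of the 26 ab9110 DMSO peaks in the span lay outside the windows. Some of these were not in this interval but in the transcript Snhg14, between Ube3a and Snrpn. Of the 15 C29F4 peaks in the span, 11 lay outside the windows, with a median fold of 6.47, against 3.52 for the peaks in the windows of all domains. They were 82.5% soft-masked, against 57.1% for the whole C29F4 list. The YY1 motif was carried by 7 of the 11, against 23.3% of the list, and 5 overlapped a dTAG peak, against 21.7%. These shares rest on 11 peaks and are given without intervals, and no difference from the list was tested. Another of the 11, with no dTAG peak and with folds of 4.71 for C29F4 and 10 for ab9110 DMSO, overlapped an input peak of fold 4.55. The highest lay 11243 bp upstream of Ndn at chr7:62334344-62336190, with folds of 16.4 for C29F4, 12.2 for ab9110 DMSO and 4.06 for ab9110 dTAG. The next, at chr7:60973851-60974652, had folds of 11.8 for C29F4 and 5.68 for ab9110 DMSO with no dTAG peak. Reads that fit several places were assigned to 1 of them, so the position of such a peak among similar repeats is uncertain. The whole span held 15 C29F4 peaks against 13.5 at the list's density and 26 ab9110 DMSO peaks against 50.2.

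In the Peg3 domain, peaks were spread over Usp29, a ubiquitin protease gene of 236642 bp, and near the starts of the zinc finger genes Peg3 and Zim1. Usp29 had 3 C29F4 peaks against 1.07 at the density. The strongest, at chr7:6947840-6948763, had folds of 7.31 for C29F4 and 4.35 for ab9110 DMSO and no dTAG peak, and lay at an internal Usp29 start in sequence 82.8% soft-masked. The others had C29F4 folds of 3.52 and 2.93 and ab9110 DMSO folds of 3.5 and 4.75, again without a dTAG peak. Inside Peg3, with summits 1077 and 944 bp from its start, lay an ab9110 DMSO peak of fold 3.7 and a dTAG peak of fold 2.9, both with the ZFP57 motif and the YY1 motif, and no C29F4 peak. This dTAG peak is also the only one in the Usp29 window. At the Zim1 start the folds were 4.13 in DMSO (22 fragments over 4.57) and 6.01 in dTAG (21 over 2.66), with no C29F4 peak. Zfp264, which the annotation gives as a transcribed pseudogene, had an ab9110 DMSO peak of fold 4.07 in its window, in an intron of Aurkc.

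Gnas, which encodes the stimulatory G protein subunit and produces maternal, paternal and biallelic transcripts from different starts, had 2 C29F4 peaks against 0.343 at the density (exact interval of the count 0.242 to 7.22). The stronger, at chr2:174315444-174316076 in an intron 11974 bp from the nearest Gnas start, had folds of 3.27 for C29F4 and 8.55 for ab9110 DMSO, and no dTAG peak. Its CpG content was low (observed to expected ratio 0.0308 for the ab9110 DMSO peak). Within 440 bp of a start of the antisense gene Nespas, the folds were 4.31 in DMSO and 6.16 in dTAG, with the ZFP57 motif in both. The dTAG list had 2 more peaks near Gnas starts, of folds 3.28 and 3.42, and the C29F4 list 1 of fold 2.5.

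Grb10, an adaptor that restrains growth and is expressed from the paternal copy in neurons and from the maternal copy elsewhere, gave the strongest dTAG peak of the windows. At an internal start, the C29F4 peak chr11:12025724-12026240 had a fold of 3.97, the ab9110 DMSO peak a fold of 3.12 (25 fragments over 7.33) and the dTAG peak a fold of 12.7 (36 over 1.91). The dTAG peak ranked 17 of 16323, and no input peak overlapped it. The number of fragments at its summit was higher than in the ab9110 DMSO peak, although the dTAG library had the lower coverage. The peaks overlapped, but their summits differed, at 12025956 for C29F4, 12025844 for ab9110 DMSO and 12026422 for dTAG. The values are therefore of different positions and do not show a gain at a single site. The sequence was CpG-rich, with a CpG observed to expected ratio of 0.962 and a GC content of 67.2% in the dTAG peak.

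The Kcnq1 domain holds 8 of the genes and had 1 C29F4 peak against 1.94, 8 ab9110 DMSO peaks against 7.19 and 5 dTAG peaks against 2.87. The C29F4 peak lay in an intron of Kcnq1, a potassium channel gene, at chr7:143375682-143376163, with a fold of 3.85 and no ab9110 partner. Elsewhere Kcnq1 had ab9110 peaks, up to 4.55 in DMSO and 4.04 in dTAG at 1 intronic place. Kcnq1ot1, the noncoding RNA that silences the domain, had no peak within 1 kb of its start in any list and a single dTAG peak of fold 3.59 within its body. At the Tssc4 start the folds were 2.96 in DMSO and 4.54 in dTAG, and Cd81, a membrane protein gene, had a peak upstream of 3.65 and 3.71. The growth regulator Phlda2 and the transporter Slc22a18 shared the same ab9110 DMSO peaks, of folds 2.76 and 2.87.

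The Zrsr1-Commd1 domain had 2 C29F4 peaks against 0.442, both in introns of Commd1, which encodes a regulator of copper and NF-kB pathways. They had C29F4 folds of 4.27 and 2.42 and ab9110 DMSO folds of 3.15 and 4.16, with no dTAG peak. Zrsr1, a splicing factor gene that lies inside Commd1 and arose by retrotransposition, had ab9110 peaks at its start and none for C29F4. The folds were 2.5 in DMSO (18 fragments over 6.6) and 6.27 in dTAG (15 over 1.55), so the dTAG peak did not have more fragments. The Commd1 start had folds of 3.78 and 4.77. Plagl1, a zinc finger transcription factor that restrains growth, had a C29F4 peak of fold 2.94 in an intron with no ab9110 partner, and 3 ab9110 DMSO peaks of folds 2.96, 2.91 and 3.89 with no dTAG partner. The one at fold 2.96 lay 114 bp from an internal start and is the CpG-rich stretch printed above. In the Igf2r domain, Airn had a C29F4 peak of fold 3.11 without an ab9110 partner, and an ab9110 DMSO peak of fold 2.62 lay at the start of Igf2r, the receptor that clears IGF2. The Airn start itself had none.

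The remaining domains had no C29F4 peak in their windows. At the start of Mest, a hydrolase gene whose promoter is a germline control region, the folds were 3.75 in DMSO and 3.15 in dTAG, and the same peaks fell in the window of Copg2. Peg10, a gene derived from a retrotransposon, and Sgce, a sarcoglycan gene with which it shares a promoter, had 7 ab9110 DMSO peaks, of folds from 2.77 to 4.93. The list's density gives 1.64, and the exact interval of the count was 2.81 to 14.4. The only dTAG peak there (4.12, with 3.26 in DMSO) lay at an internal Sgce start and not at the shared promoter. Impact had a dTAG peak of fold 5.65 at its start and an ab9110 DMSO peak of fold 3.04 elsewhere. Nnat and its host gene Blcap had a dTAG peak of fold 3.5 at the Nnat start and ab9110 DMSO peaks of 2.63 and 2.75. H13 had a dTAG peak of 3.11 at its start and, at its end, peaks of 3.93 in DMSO and 3.82 in dTAG. Inpp5f had ab9110 DMSO peaks of 3.2, 2.99 and 3.42 and dTAG peaks of 3.63, 4.56 and 3.43, none shared. An input peak of fold 4.37 also lay in its window.

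At the growth factor Igf2 and the noncoding RNA H19 the only peaks were of the ab9110 DMSO list. The one at H19, of fold 2.79, lay 2418 bp upstream of the H19 start, the side on which the control region of the domain lies. The one at Igf2 had a fold of 2.93. Both were weak calls, with 12 fragments over 3.67 at H19 and 11 over 3.1 at Igf2. At the coverage of the dTAG library the chance of keeping them was 6.62% and 9.71%, so their absence from the dTAG list shows no loss. In the Dlk1-Meg3 domain, Meg3 had a dTAG peak of fold 4.12 at its start. Rian had a dTAG peak of fold 3.87 and shared with Rtl1 an ab9110 DMSO peak of fold 3.42. Some 12622 bp upstream of a Meg3 start, outside the windows and between it and Dlk1, an ab9110 DMSO peak of fold 3.1 overlapped a dTAG peak of fold 3.87. The CpG observed to expected ratio was 1.24 in the DMSO peak, and the ZFP57 motif was present in both lists.

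Peaks in the imprinted windows lay near transcript starts more often than peaks of the whole lists did. A summit lay within 1 kb of an annotated transcript start for 6 of 19 C29F4 peaks (31.6%, exact Clopper-Pearson 95% interval 12.6 to 56.6), against 7.19% over the list. The shares were 26 of 64 for ab9110 DMSO (40.6%, 28.5 to 53.6, against 16.7%) and 23 of 31 for ab9110 dTAG (74.2%, 55.4 to 88.1, against 43.9%). Windows are built around genes and whole lists are not, and the effect of that was not tested. Counted by gene, with the distance taken from the nearest edge of the peak, a peak within 1 kb of an own start was found at 5 of 47 for C29F4 (Mkrn3, Ube3a, Usp29, Gnas and Grb10), beside 2.28% of all genes. There were 17 for ab9110 DMSO, beside 21.5%, and 20 for ab9110 dTAG, beside 25.6%. The input had 1, beside 1.02%. With 1 start per gene in place of every annotated start, the counts were 3, 10 and 13 for the ChIP lists, beside 1.66%, 18.5% and 23.5% of all genes by the same rule, and 1 for the input, beside 0.823%. Several peaks lay at internal starts.

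Among the 13 genes marked as having a start in a germline methylated region, 9 had a ChIP peak within 1 kb of a start. For ab9110 DMSO there were 7, at Peg3 (3.7), Usp29, Sgce, Mest, Plagl1, Zrsr1 and Peg13. For ab9110 dTAG there were also 7, at Peg3, Usp29, Sgce, Mest, Nnat, Impact and Zrsr1. The Sgce peaks and the Usp29 peak of the DMSO list lay at internal starts, and the Usp29 peak of the dTAG list was the one inside Peg3. For C29F4 there was 1, Usp29 at its internal start. No list had one at Kcnq1ot1, Peg10, Snrpn or Airn. Of the 34 other genes, 10 had an ab9110 DMSO peak at a start, 13 a dTAG peak and 4 a C29F4 peak. These 34 include all 5 genes whose isoforms differ in expressed copy, namely Grb10, Gnas, Blcap, H13 and Inpp5f. Of these 5, 2 had a C29F4 peak at a start, 3 an ab9110 DMSO peak and 5 a dTAG peak. Each gene carried 1 mark, so a germline methylated region at an alternative start may have been missed. The 13 and the 34 therefore give no contrast of methylated and unmethylated starts. Methylation was not measured in these samples, and the positions of the methylated regions themselves were not analysed here.

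The next comparison asks which peaks seen with 1 antibody were also called with the other, and which remained after EHMT2 was degraded. Merged where they overlapped, the ChIP peaks in the windows made 84 loci. Of these, 37 were of ab9110 DMSO alone, 14 of ab9110 DMSO and dTAG, 14 of dTAG alone, 10 of C29F4 and ab9110 DMSO, 6 of C29F4 alone and 3 of all lists. The 10 with both antibodies and no dTAG peak lay in 5 domains, at Trappc9, Usp29, Commd1, Snrpn and Gnas, and 1 of the 10 was within 1 kb of a start. Of the 14 shared by ab9110 DMSO and dTAG, 10 were. The whole list showed a like split. Of ab9110 DMSO peaks with a summit within 1 kb of a start, 12 of 26 in the windows overlapped a dTAG peak (46.2%, 26.6 to 66.6). The share of the list was 49.5%. Of those farther away, 5 of 38 did (13.2%, 4.41 to 28.1), against 12.8% of the list.

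C29F4 peaks in the windows overlapped an ab9110 DMSO peak in 13 of 19 cases (68.4%, 43.4 to 87.4), against 67% of the list. They overlapped an ab9110 DMSO peak and no dTAG peak in 10 of 19 (52.6%, 28.9 to 75.6), against 46.1%. The ab9110 DMSO peaks overlapped a dTAG peak in 17 of 64 (26.6%, 16.3 to 39.1), against 18.9%, and dTAG peaks overlapped a DMSO peak in 17 of 31 (54.8%, 36 to 72.7), against 46.8%. Each share of the whole list lay within the interval for the windows, so no difference of the imprinted genes from the list was detectable at these numbers. These shares depended on depth. With the ab9110 DMSO list thinned, C29F4 peaks overlapped it in 38.6%, and overlapped it with no dTAG peak in 28.5%, while DMSO peaks overlapped dTAG in 39.3% and dTAG peaks overlapped DMSO in 33.4%. When the ab9110 DMSO peaks were thinned to match dTAG library coverage, the 36 genes with such a peak became 20.2 on average, below the 27 with a dTAG peak, so the larger DMSO count could not be told apart from the larger depth of that library.

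**Figure D4:**
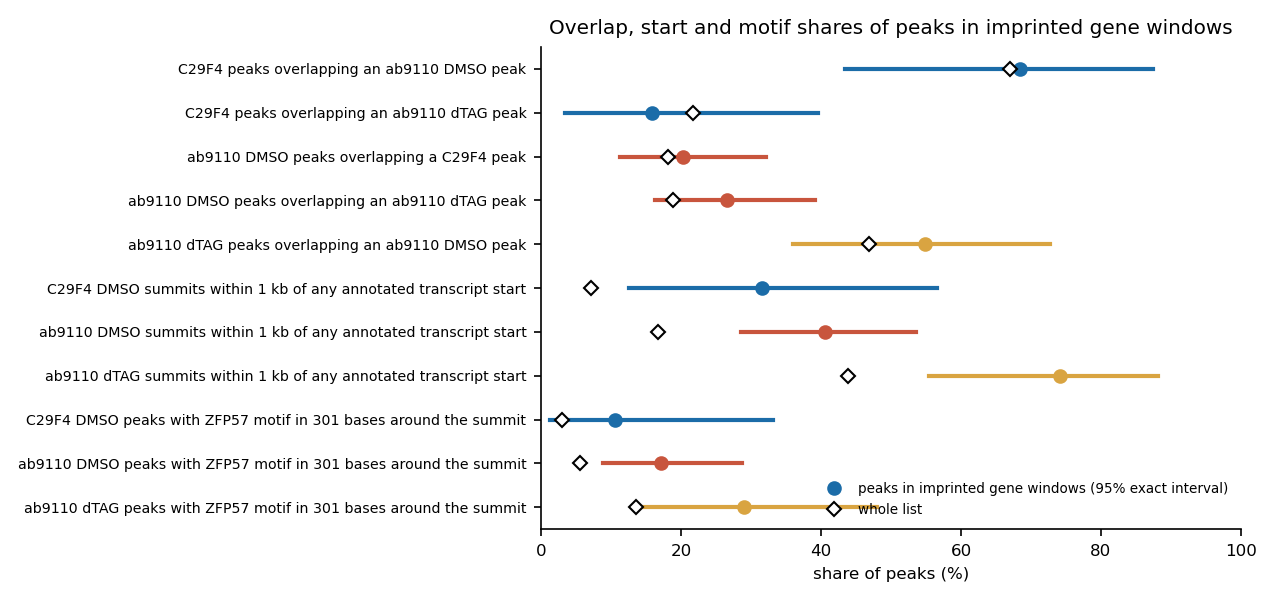
Shares of the peaks in imprinted gene windows (filled points, lines for exact 95% intervals, coloured by list) that overlap another list, lie within 1 kb of a transcript start or hold the ZFP57 motif, with the share over the whole list as open diamonds. For overlap the diamonds lie within the lines, while for starts they lie to the left, at 7.19%, 16.7% and 43.9%.

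Peaks that remained after dTAG at the imprinted genes were mostly CpG-rich. A peak was called CpG-rich at a GC content of at least 50% and a CpG observed to expected ratio of at least 0.6, limits chosen after the peaks had been seen. In the windows this held for 1 of 19 C29F4 peaks (5.26%, interval 0.133 to 26, against 4.36% of the list), for 15 of 64 ab9110 DMSO peaks (23.4%, 13.8 to 35.7, against 11.1%) and for 17 of 31 dTAG peaks (54.8%, 36 to 72.7, against 38.6%). Of the 15 CpG-rich ab9110 DMSO peaks, 11 overlapped a dTAG peak (73.3%, 44.9 to 92.2), and of the other 49 only 6 did (12.2%, 4.63 to 24.8). The whole list showed the same split, with 59% and 13.9%.

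Soft-masked sequence was rare under the peaks at imprinted genes. It made up 19.8% of C29F4 peak bases in the windows against 57.1% over the list, 13.8% against 42% for ab9110 DMSO and 8.93% against 26.1% for ab9110 dTAG. The windows themselves were 23.9% soft-masked and the genome 36.4%, so the windows held less of it to start with. The median GC content of the peaks was 47%, 50.7% and 55.6% in the windows, in the same order, and 44.6% over all bases of the windows. The C29F4 peaks in the long Snrpn interval, at 82.5% soft-masked, differed from those in the windows in this respect.

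**Figure D5:**
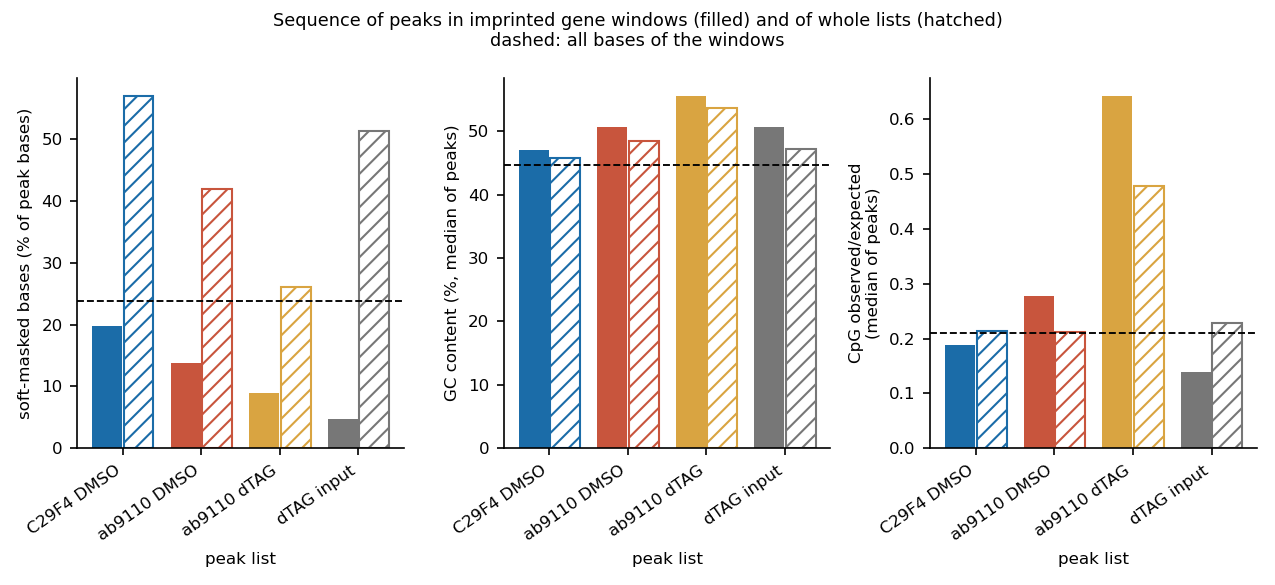
Soft-masked share of peak bases, median GC content and median CpG observed to expected ratio of the peaks in imprinted gene windows (filled bars) and of whole lists (hatched bars), for the 4 lists, with dashed lines at the value of all window bases. Soft-masked shares in the windows are below those of the lists in every list, and the dTAG peaks in the windows have a median CpG ratio of 0.643.

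The ZFP57 motif TGCCGC was searched on both strands in a fixed stretch centred on each summit. It was present at 2 of 19 C29F4 peaks in the windows (10.5%, 1.3 to 33.1), at Grb10 and the Ube3a start, against 2.92% of the list. For ab9110 DMSO it was present at 11 of 64 (17.2%, 8.9 to 28.7, against 5.55%), and for dTAG at 9 of 31 (29%, 14.2 to 48, against 13.6%). The 11 were at Plagl1, Peg13, Mest, Peg3, Zim1, Gnas, Inpp5f, Tssc4 and the Commd1 start, at the neighbouring Cct4 start in the Commd1 window, and at an exon of Igf2os beside Igf2. For scale, 1.8% of genome tiles of the same length held it, 2.95% of tiles of the windows, 11.6% of the 32851 RefSeq promoters of 300 bases (GRCm38.p6) and 12 of the 50 promoters (24%) of the 36 imprinted genes with one in that set. The motif contains a CpG, and CpG-rich peaks held it more often. Among CpG-rich ab9110 DMSO peaks alone, 9 of 15 in the windows had it (60%, 32.3 to 83.7), against 23.7% of the list, and among CpG-rich dTAG peaks 8 of 17 (47.1%, 23 to 72.2), against 28.5%.

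The YY1 motif AAGATGGC, bound by a factor with sites in the Peg3 promoter and in several retrotransposons, did not differ detectably between windows and lists at these numbers. It was at 2 of 19 C29F4 peaks (10.5%, 1.3 to 33.1), at Snrpn and the Ube3a start, against 23.3% of the list. The share was 4 of 64 for ab9110 DMSO (6.25%, 1.73 to 15.2, against 10.3%). For scale, 2.69% of genome tiles held the YY1 motif. A match is a description of the letters and not a binding site.

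Genes that keep or shape imprints, and the EHMT2 and EHMT1 genes, were looked at as a separate list. Of the 14 listed, among them Zfp57, Trim28, Setdb1, Dnmt1 and Uhrf1, all 14 had an ab9110 DMSO peak and all 14 a dTAG peak in the window, and 3 (Zfp445, Trim28 and Dnmt3a) had a C29F4 peak, where 53%, 42.7% and 14.6% of all genes had one. At a start, 10 had an ab9110 DMSO peak and 9 a dTAG peak, beside 21.5% and 25.6% of all genes. Their windows were longer than those of all genes (median 52.8 kb against 32.8 kb). Another 32 genes of imprinted domains, which were not on the list of 47, had C29F4 peaks at 14, ab9110 DMSO peaks at 23 and dTAG peaks at 15, beside the same 14.6%, 53% and 42.7% of all genes, in windows of 59.6 kb at the median. The part of window length in either list's counts was not tested.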

How the data were processed

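The 4 deposited lists are narrowPeak files from HA ChIP-seq and input of EHMT2-dTAG mESCs. Per the methods and the submitters' processing notes, the authors aligned reads to mm10 with STAR 2.7.10, keeping multimapping reads at 1 place, removed duplicates with Picard 2.26.0 and blacklisted reads, called peaks with MACS2 2.2.6 and kept those with a q-value under 0.05. The methods give a calling threshold of p 0.05 for ChIP-seq before the q-value filter and name no control library among the parameters. In the ab9110 lists the score follows the p-value and peak numbers run beyond the peaks kept. In the C29F4 list the score follows the q-value for all 11010 peaks and the numbers end at 11010, so the C29F4 list and the ab9110 lists differ in format, and whether their calling thresholds differed is not known. The deposited fold enrichment is the ratio, computed by the authors' caller, of fragments piled up at the summit to local background, with 1 added to each. Each deposited peak also has a −log10 p-value, a −log10 q-value and a score. The q-value was used only in the alternatives.

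Peaks on chromosomes 1 to 19, X and Y were counted in gene windows of GENCODE M21 with Python 3.11.15, pandas 2.3.3 and scipy 1.17.1. Expected counts are the list's peak number times the share of the genome without gaps (2648 Mb). Pileup and background were rebuilt from the fold and the p-value, and the lowest background gave the coverage. The DMSO list was thinned to the dTAG coverage by the binomial chance that each peak kept a −log10 p of at least 4.28. Both steps were tested on simulated data. Soft-masking and sequences came from the RefSeq copy of GRCm38.

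Samples were grouped by antibody, treatment and library as the labels give them. The 2 C29F4 samples enter as 1 merged list, and the C29F4 inputs and the ab9110 DMSO input were not analysed here. The 47 genes, the domains, the roles, the marks for germline starts (from background knowledge) and the other gene lists were chosen with earlier results of these data known. Named with values were genes with a C29F4 peak or peaks of 2 or more lists, members without a peak, the 3 strongest C29F4 and ab9110 DMSO peaks of the domains, and peaks within 1 kb of a start marked as germline methylated. Other members are given by their counts and, where named, their values. Alternatives were stricter q-values, other windows, a larger overlap, 1 start per gene and the thinned DMSO list.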

Additional observations from a re-analysis of the deposited data

How the results depend on the processing

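Of 127 recomputed values, 105 stayed within 1.5 times the count or within the interval reported, and 22 moved beyond it. Over the whole span of each domain the ab9110 DMSO ratio to the genome-wide density was 0.878 in place of 1.19. The input ratio, its genes in windows and its domains were 0 at a q-value under 0.01 and 0 under 0.001, and its genes near a start 0 under 0.01. With windows of 50 kb on each side, 25 genes had a C29F4 peak and 8 an input peak. At a q-value under 0.001, 21 genes had an ab9110 DMSO peak, and 14 genes in 9 domains a dTAG peak. Genes with a dTAG peak near a start were 12 at a q-value under 0.01. With 1 start per gene, 3, 10 and 13 genes had one for C29F4, ab9110 DMSO and dTAG. Thinned to the dTAG coverage, ab9110 DMSO peaks fell at 20.2 genes, C29F4 peaks overlapped them in 38.6% and overlapped them without a dTAG peak in 28.5%, the DMSO peaks overlapped dTAG in 39.3%, and dTAG peaks overlapped DMSO in 33.4%. Thinning removes peaks by construction. No other cause was tested.

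No paired analysis was possible because each list gives 1 value per peak and none per replicate, the C29F4 samples having been merged before calling. For the same reason no replicate was left out. Depth limits the dTAG and input lists most, and a missing peak there does not show that signal is absent.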
